A study of Mus musculus with 6 samples.

Results

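The genes described here encode the enzymes that carry pyruvate into the citrate cycle and around it, measured in the cochlea of *Cmah*-null mice and of WT controls. They were chosen by symbol from a list of 31 genes, covering the pyruvate dehydrogenase complex and its kinases, each step of the cycle, pyruvate carboxylase and the phosphoenolpyruvate carboxykinases. Of these, 30 had a probe under their symbol, among 18138 symbols on the array, and each was read from the probe with the highest mean signal. *Sdha*, the flavoprotein subunit of succinate dehydrogenase, was not analysed here. A gene counted as detected on an array when its detection p, which sets its signal against negative controls, was under 0.05. By that measure 27 of the 30 genes were detected on all 6 arrays, *Sucla2* on 4, and *Pdhx* and *Pck2* on 0.

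Total RNA of 3 WT and 3 *Cmah*-null mice was hybridized to 1 Illumina MouseRef-8 v2 array per sample. All 6 mice were 12 months old and of C57BL/6 background in the labels, C57BL/6J in the study's methods, and the null mice carried the tm1Ykoz allele of *Cmah*, the hydroxylase that makes N-glycolylneuraminic acid. The sources used here do not name which part of the cochlea was taken or whether RNA of several animals was pooled. Levels are quantile-normalized log2 signals, and a log2 difference of 1 is a 2-fold difference in signal. Signals of different probes depend on the probes and were not set against each other as levels of their genes.

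Pyruvate made by glycolysis enters mitochondria, where the pyruvate dehydrogenase complex turns it into acetyl-CoA. Pyruvate dehydrogenase kinases switch that complex off by phosphorylation. The citrate cycle then oxidizes the acetyl group and passes electrons, as NADH and through succinate dehydrogenase, to the respiratory chain. Several reactions also have a cytosolic enzyme, encoded by a separate gene for isocitrate and malate dehydrogenase, and the cochlea is known for its high energy demand, above all in the stria vascularis.

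The arrays differed in ways that touch these genes. The number of detected probes, of 25697, ran from 13873 to 15223 across the arrays. Over all 25697 probes, detected or not, *Cmah*-null replicates 1 and 2 lay closest together, with an SD of their log2 difference of 0.13. The other pairs had 0.31 to 0.64, and the 5 pairs with *Cmah*-null replicate 3 had the 5 largest values. The single *Cmah* probe was detected on 1 WT and 2 *Cmah*-null arrays, with log2 signals of 7.27, 7.28 and 7.87 in WT and 7.95, 7.98 and 7.27 in *Cmah*-null. Whether it lies in the altered part of the gene is not given in the sources used here, so it does not check the labels, on which every direction below rests. In the deposited tables the columns of the null group are named "old". They were taken as *Cmah*-null by the rule set for this work, and their numbers gave only the replicate.

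As a group, these genes were lower in *Cmah*-null cochlear tissue in the quantile-normalized values. The log2 fold change of *Cmah*-null over WT was below 0 for 28 of the 30 genes, against 49.5% of all probes, and its median was -0.45, against 0.00 over all probes and 0.03 over the probes detected on all arrays. A gene is called here when it changed at least 1.5-fold with an unadjusted p under 0.05 in limma, the threshold of the study. By it 6 of the 30 genes were called lower and 0 higher, where 1.41% of all probes were called lower and 1.3% higher. Among probes detected on all 6 arrays, the shares were 2.64% and 2.51%. The 3 *Cmah*-null values lay below all 3 WT values for 11 genes, against 7.33% of all probes, and above them for 0 genes, against 9.11%. No gene passed an adjusted p of 0.05 with the Benjamini-Hochberg adjustment over all probes in limma, where the smallest adjusted p of any probe was 0.25 and the smallest among these genes was 0.379. At an unadjusted p under 0.05 alone, 10 genes were lower, against 3.78% of all probes, and 0 higher. With *Cmah*-null replicates 1 and 2 averaged and counted as 1 array, the same 6 genes were called. In bulk tissue, fewer cells of a type and less RNA per cell cannot be told apart.

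The choice of scaling moved the counts of lower genes. With arrays scaled to a common median in place of quantile normalization, the median of the detected probes moved to 0.30, 96.8% of the 2488 called probes were higher, against 47.9% of 697, and 2 of the 30 genes were called lower, *Dld* and *Sdhd*, against 0.307% of all probes. The log2 fold change of 11 other genes changed sign there, and that of no called gene did. The median of the 30 genes was then -0.16, which relative to the median of the detected probes is -0.46, against -0.47 in the quantile-normalized values.

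The arrays also fell into sets by the median number of beads behind a probe, 32 to 34 on WT replicate 1 and on both of the near-identical null arrays and 38 or 39 on the rest. With the set as a block in limma, 12 genes were called lower in place of 6, and the share of all probes called lower rose to 3.4% from 1.41%. Within the set with fewer beads (1 WT and 2 null arrays, no test) the median log2 fold change of the 30 genes was -0.70 and that of the 6 called genes lay between -1.26 and -0.59. Within the set with more beads (2 WT and 1 null array, no test) the median was -0.23 and the 6 genes lay between -1.33 and -1.02.

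**Figure D1:**
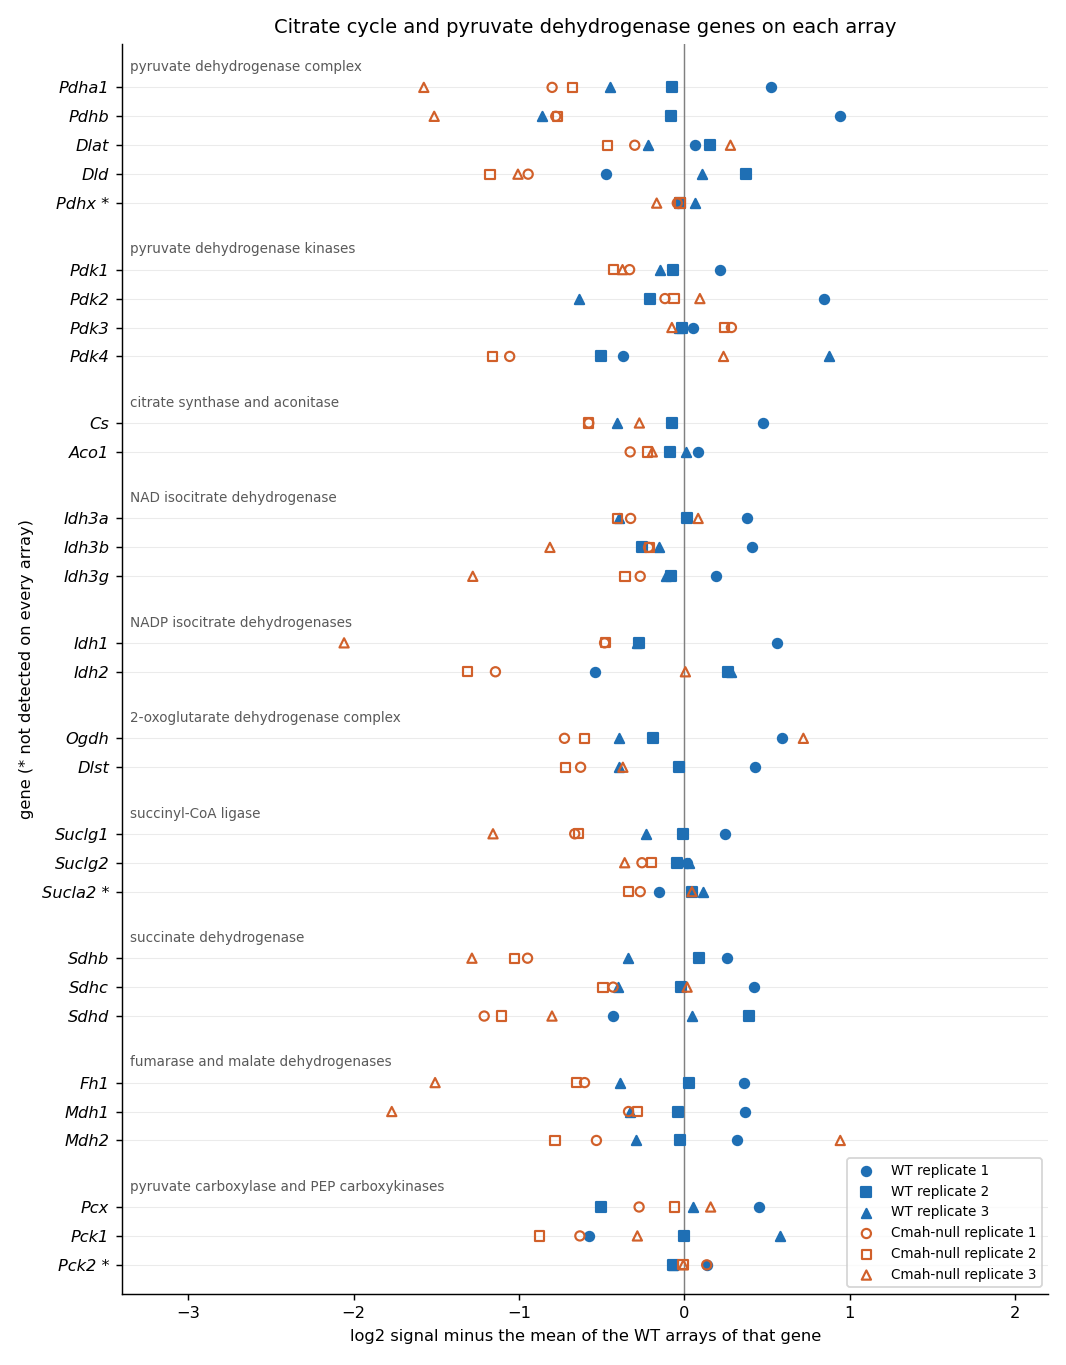
Log2 signal of each of the 30 genes on each array, minus the mean of the 3 WT arrays of that gene, grouped by enzyme; filled blue symbols are WT and open orange symbols are *Cmah*-null, with circles, squares and triangles for replicates 1, 2 and 3. In 11 genes, among them *Pdha1*, *Dld*, *Suclg1*, *Sdhb*, *Sdhd* and *Fh1*, all orange symbols lie left of all blue ones, and the *Cmah*-null triangle often lies far from the other orange symbols.

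The sequences below belong to *Sdhb*, *Dld* and *Sdhd*, the called genes with the largest log2 fold changes and the smallest unadjusted p. *Dld* and *Sdhd* were called in all 15 alternative settings with a test and *Sdhb*, like *Suclg1*, in 14 of them. The 250 bases before their RefSeq transcription starts (GRCm38.p6) are shown 5′ to 3′ on the gene's strand, to let the start regions of genes that moved together be compared. They lie at chr12:31351472-31351721 on the minus strand for *Dld*, chr4:140961021-140961270 on the plus strand for *Sdhb* and chr9:50603850-50604099 on the minus strand for *Sdhd*, and capitals mark matches to the GC box, GGGCGG on either strand.
Dld: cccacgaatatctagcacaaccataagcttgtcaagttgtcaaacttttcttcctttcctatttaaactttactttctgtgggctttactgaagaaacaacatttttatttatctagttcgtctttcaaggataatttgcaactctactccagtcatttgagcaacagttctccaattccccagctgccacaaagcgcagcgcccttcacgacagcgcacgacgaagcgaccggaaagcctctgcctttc
Sdhb: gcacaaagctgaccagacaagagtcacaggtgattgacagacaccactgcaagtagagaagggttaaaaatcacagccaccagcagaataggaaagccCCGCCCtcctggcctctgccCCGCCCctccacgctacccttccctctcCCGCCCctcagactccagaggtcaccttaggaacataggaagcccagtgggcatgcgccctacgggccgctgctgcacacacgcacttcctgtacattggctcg
Sdhd: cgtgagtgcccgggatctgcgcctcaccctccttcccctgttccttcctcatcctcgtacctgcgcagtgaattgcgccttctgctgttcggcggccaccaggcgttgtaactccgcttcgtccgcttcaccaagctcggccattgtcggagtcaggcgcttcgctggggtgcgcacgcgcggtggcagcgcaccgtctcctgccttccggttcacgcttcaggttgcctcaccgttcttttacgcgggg

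*Sdhb* holds 3 GC boxes in this window, beginning 152, 132 and 104 bases before the start, all on the reverse strand. *Dld* holds no match to any of the 5 motifs searched, and in *Sdhd* the matches lie at or past the start, a GC box across it and TCAAGGTCA, the element of the estrogen-related receptors, on the reverse strand at bases 37 to 45 after it. Both strands of windows of 300 bases, the 250 shown and 50 more, were searched for the 28 genes with a RefSeq entry. TCAAGGTCA was found in 1 of the 28, against 0.466% of all 27025 genes, and the GC box in 21, against 38.2%. TATAAA was found in 0, against 15.7%, and the palindromic element of nuclear respiratory factor 1 and the direct-repeat element of the peroxisome proliferator-activated receptors in 0, against 1.07% and 0.0481%.

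In the pyruvate dehydrogenase complex, the E1 subunit *Pdha1* and the E3 component *Dld* were called lower, with log2 fold changes close to -1, and the E2 component was not called. *Pdha1*, the catalytic alpha subunit of E1 that the kinases phosphorylate, had log2 signals of 14.08, 13.48 and 13.11 in WT and 12.76, 12.88 and 11.98 in *Cmah*-null. Every *Cmah*-null value lay below the lowest WT value, and replicate 3 was the lowest of them, at -0.84 relative to the mean of the other null arrays. *Pdha1* fell by 1.02 on the log2 scale (SE 0.34), to 49.4% of the WT signal, with an unadjusted p of 0.0243 and an adjusted p of 0.54 in limma, lower in 3 of 3 arrays. Without WT replicate 1 the log2 fold change was -0.75 with an unadjusted p of 0.0657 in limma, and the call was also lost without WT replicate 2.

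*Pdhb*, the beta subunit of E1, read 12.28, 11.26 and 10.48 in WT and 10.56, 10.57 and 9.83 in *Cmah*-null. WT replicate 3 lay below 2 of the null arrays, so the groups overlapped, and the log2 fold change of -1.02 (SE 0.48) had an unadjusted p of 0.0803 in limma. It was -0.55 without WT replicate 1 and -1.45 without WT replicate 3, the latter past the call with an unadjusted p of 0.017 in limma. A second *Pdhb* probe, 300 bases further along the transcript, did not overlap between groups and was called, at -1.14 (SE 0.24, unadjusted p = 0.00338, adjusted p = 0.397 in limma). The WT values of the first probe spanned 1.80 log2 units and those of the second 0.88.

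*Dld*, the dihydrolipoamide dehydrogenase shared by the pyruvate and 2-oxoglutarate complexes, read 9.28, 10.12 and 9.85 in WT and 8.81, 8.58 and 8.74 in *Cmah*-null. Here the 3 null arrays lay within 0.23 of each other, and unlike most of these genes WT replicate 1 was the lowest WT array. *Dld* fell by 1.04 on the log2 scale (SE 0.22), with an unadjusted p of 0.00374 and an adjusted p of 0.397 in limma, and lay between -1.35 and -0.75 over the 15 alternatives with a test. *Dlat*, the acetyltransferase of the E2 core, differed by -0.16 (SE 0.22), and *Pdhx*, which tethers *Dld* protein to that core, was not detected.

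The 4 kinase genes did not move together. *Pdk1* read 8.94, 8.66 and 8.58 in WT and 8.40, 8.30 and 8.35 in *Cmah*-null, so its groups did not overlap. Its log2 fold change of -0.38 (SE 0.11) had an unadjusted p of 0.0164 and an adjusted p of 0.506 in limma and was under 1.5-fold. *Pdk2* differed by -0.03 (SE 0.37) and *Pdk3* by 0.15 (SE 0.12). *Pdk4*, the isoform known to rise with fasting and fatty acid use, read 12.33, 12.19 and 13.57 in WT and 11.64, 11.54 and 12.94 in *Cmah*-null. Replicate 3 was the highest array in both groups, and the difference of -0.66 (SE 0.52) was within that spread. It was -0.22 without WT replicate 3 and -1.11 without *Cmah*-null replicate 3, the latter past the call with an unadjusted p of 0.0464 in limma.

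At the entry of the cycle neither gene was called with all arrays. *Cs*, citrate synthase, differed by -0.48 (SE 0.24), with null values of 12.36, 12.36 and 12.66 against 13.41, 12.86 and 12.53 in WT, and the groups overlapped at null replicate 3. It was -0.24 without WT replicate 1 and -0.68 without WT replicate 3, the latter past the call with an unadjusted p of 0.0242 in limma. *Aco1*, the cytosolic aconitase that also acts as an iron-regulatory protein, did not overlap between groups, at 9.09, 8.93 and 9.02 in WT and 8.69, 8.79 and 8.82 in *Cmah*-null. Its difference was small and its spread smaller, a log2 fold change of -0.25 (SE 0.08) with an unadjusted p of 0.0239 and an adjusted p of 0.54 in limma.

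The NAD-dependent isocitrate dehydrogenase, a mitochondrial enzyme of 3 kinds of subunit, was lower in each subunit without a call. The log2 fold change was -0.22 (SE 0.23) for *Idh3a*, the catalytic subunit, -0.41 (SE 0.25) for *Idh3b* and -0.64 (SE 0.29) for *Idh3g*. *Idh3g* read 14.64, 14.37 and 14.34 in WT and 14.18, 14.09 and 13.17 in *Cmah*-null. All null values were below the WT values, and replicate 3 stood at -0.97 relative to the mean of the other null arrays. Without *Cmah*-null replicate 3, the difference of *Idh3g* was -0.31, and without *Cmah*-null replicate 1 it was -0.82, past the call with an unadjusted p of 0.0426 in limma.

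The NADP-dependent enzymes showed opposite positions of *Cmah*-null replicate 3. *Idh1*, the cytosolic form, read 11.50, 10.67 and 10.66 in WT and 10.46, 10.47 and 8.89 in *Cmah*-null. The groups did not overlap, but replicate 3 stood at -1.58 relative to the mean of the other null arrays, and the log2 fold change was -1.01 (SE 0.50, unadjusted p = 0.0911 in limma) with it and -0.48 without it. *Idh2*, the mitochondrial form, read 11.52, 12.33 and 12.34 in WT and 10.92, 10.75 and 12.07 in *Cmah*-null. There replicate 3 stood at 1.23 relative to the mean of the other null arrays, and the log2 fold change was -0.82 (SE 0.42, unadjusted p = 0.0984 in limma) with it and -1.23 (unadjusted p = 0.00561 in limma), past the call, without it.

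In the 2-oxoglutarate dehydrogenase complex, the shared *Dld* was the one gene called. *Dlst*, the succinyltransferase core, read 13.27, 12.81 and 12.45 in WT and 12.22, 12.13 and 12.47 in *Cmah*-null. Only the top null array reached into the WT range, and the log2 fold change of -0.57 (SE 0.22) had an unadjusted p of 0.0443 in limma and stayed just under 1.5-fold, at 1.49-fold lower. It passed the call without WT replicate 3 (-0.77) and without *Cmah*-null replicate 3 (-0.67), with unadjusted p of 0.0107 and 0.0354 in limma, and was -0.36 without WT replicate 1. *Ogdh*, the E1 component, read 13.14, 12.36 and 12.15 in WT and 11.82, 11.94 and 13.27 in *Cmah*-null, the last of these above every WT array. Its log2 fold change was -0.20 (SE 0.46), and -0.67 without *Cmah*-null replicate 3.

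Succinyl-CoA ligase, the step of substrate-level phosphorylation, pairs the alpha subunit *Suclg1* with a GTP-forming (*Suclg2*) or ATP-forming (*Sucla2*) beta subunit. *Suclg1* read 14.38, 14.12 and 13.90 in WT and 13.47, 13.49 and 12.97 in *Cmah*-null, a gap of 0.41 between the lowest WT and the highest null array. It fell by 0.82 on the log2 scale (SE 0.19, unadjusted p = 0.00551, adjusted p = 0.417 in limma) and kept its call in 14 of 15 alternatives, the exception being median scaling. *Suclg2* also had groups that did not overlap, with a smaller log2 fold change of -0.27 (SE 0.08, unadjusted p = 0.0127, adjusted p = 0.479 in limma). Its WT values lay within 0.07 of each other and its null values between 9.65 and 9.82. *Sucla2* differed by -0.19 (SE 0.13) and was detected on 3 WT arrays and 1 *Cmah*-null array.

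Succinate dehydrogenase, which is also complex II of the respiratory chain, held 2 of the 6 called genes. *Sdhb*, the iron-sulfur subunit, read 11.87, 11.69 and 11.26 in WT and 10.66, 10.58 and 10.32 in *Cmah*-null. The highest null array lay 0.60 below the lowest WT array. *Sdhb* fell by 1.09 on the log2 scale (SE 0.18), to 47.1% of WT, with an unadjusted p of 0.00109 and an adjusted p of 0.379 in limma, the smallest of these genes. It was lower in 3 of 3 arrays, and lay at -0.99 without *Cmah*-null replicate 3 and -0.96 without WT replicate 1.

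*Sdhd*, a membrane anchor subunit, read 9.59, 10.41 and 10.07 in WT and 8.81, 8.92 and 9.22 in *Cmah*-null. The groups did not overlap, and as for *Dld* the lowest WT array was replicate 1. *Sdhd* fell by 1.04 on the log2 scale (SE 0.23, unadjusted p = 0.00446, adjusted p = 0.402 in limma). *Sdhc*, the other anchor subunit, overlapped between groups, at 13.34, 12.90 and 12.52 in WT and 12.49, 12.43 and 12.94 in *Cmah*-null, with a log2 fold change of -0.30 (SE 0.25).

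*Sdhb* was measured by 3 probes, whose sequences show how far they stand for separate measurements. They are given as on the array, named by probe and by their first base in the transcript, and capitals mark the 49 bases that the lower 2 share.
ILMN_2592389, base 372: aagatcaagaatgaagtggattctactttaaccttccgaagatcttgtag
ILMN_2769064, base 606: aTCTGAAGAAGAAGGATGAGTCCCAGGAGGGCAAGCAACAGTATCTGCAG
ILMN_2769065, base 608: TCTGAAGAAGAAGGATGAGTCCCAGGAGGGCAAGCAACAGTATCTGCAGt

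ILMN_2769065 is the probe used above, and ILMN_2769064 gave a log2 fold change of -1.04 (SE 0.17), but the 2 differ by an offset of 1 base and are not independent. ILMN_2592389, elsewhere in the transcript, was detected on 4 arrays with signals near background (mean 7.51 in WT and 7.43 in *Cmah*-null) and differed by -0.08 (SE 0.08). Only the 2 overlapping probes therefore carry the *Sdhb* result.

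*Fh1*, the fumarase found in both mitochondria and cytosol, read 12.42, 12.08 and 11.67 in WT and 11.45, 11.40 and 10.55 in *Cmah*-null. The groups were apart by 0.22 log2 units, with null replicate 3 lowest by far. It fell by 0.92 on the log2 scale (SE 0.31, unadjusted p = 0.0253, adjusted p = 0.544 in limma). Without *Cmah*-null replicate 3 it was -0.63, and without WT replicate 1 it was -0.74 with an unadjusted p of 0.0791 in limma, so the call was lost there, as it was without WT replicate 2.

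The malate dehydrogenases were pulled apart by a single array. *Mdh1*, the cytosolic form and part of the malate-aspartate shuttle, read 10.75, 10.34 and 10.05 in WT and 10.04, 10.10 and 8.61 in *Cmah*-null. *Mdh2*, the mitochondrial form of the cycle itself, read 12.81, 12.47 and 12.20 in WT and 11.96, 11.71 and 13.44 in *Cmah*-null. On null replicate 3, *Mdh1* stood at -1.46 and *Mdh2* at 1.60 relative to the mean of the other null arrays. With all arrays the log2 fold changes were -0.80 (SE 0.44) and -0.12 (SE 0.47), and without that array they were -0.31 and -0.66, the latter past the call with an unadjusted p of 0.0181 in limma. Another 2 *Mdh1* probes, detected on 5 and 3 arrays, differed by -0.0027 and -0.0029.

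Pyruvate carboxylase, *Pcx*, which refills the cycle with oxaloacetate, differed by -0.06 (SE 0.26). *Pck1*, the cytosolic phosphoenolpyruvate carboxykinase, read 8.002, 8.58 and 9.15 in WT and 7.95, 7.70 and 8.29 in *Cmah*-null, with overlapping groups and a log2 fold change of -0.60 (SE 0.32). It was -0.31 without WT replicate 3 and -0.89 without WT replicate 1, the latter past the call with an unadjusted p of 0.0196 in limma. *Pck2*, its mitochondrial counterpart, was not detected.

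**Figure D2:**
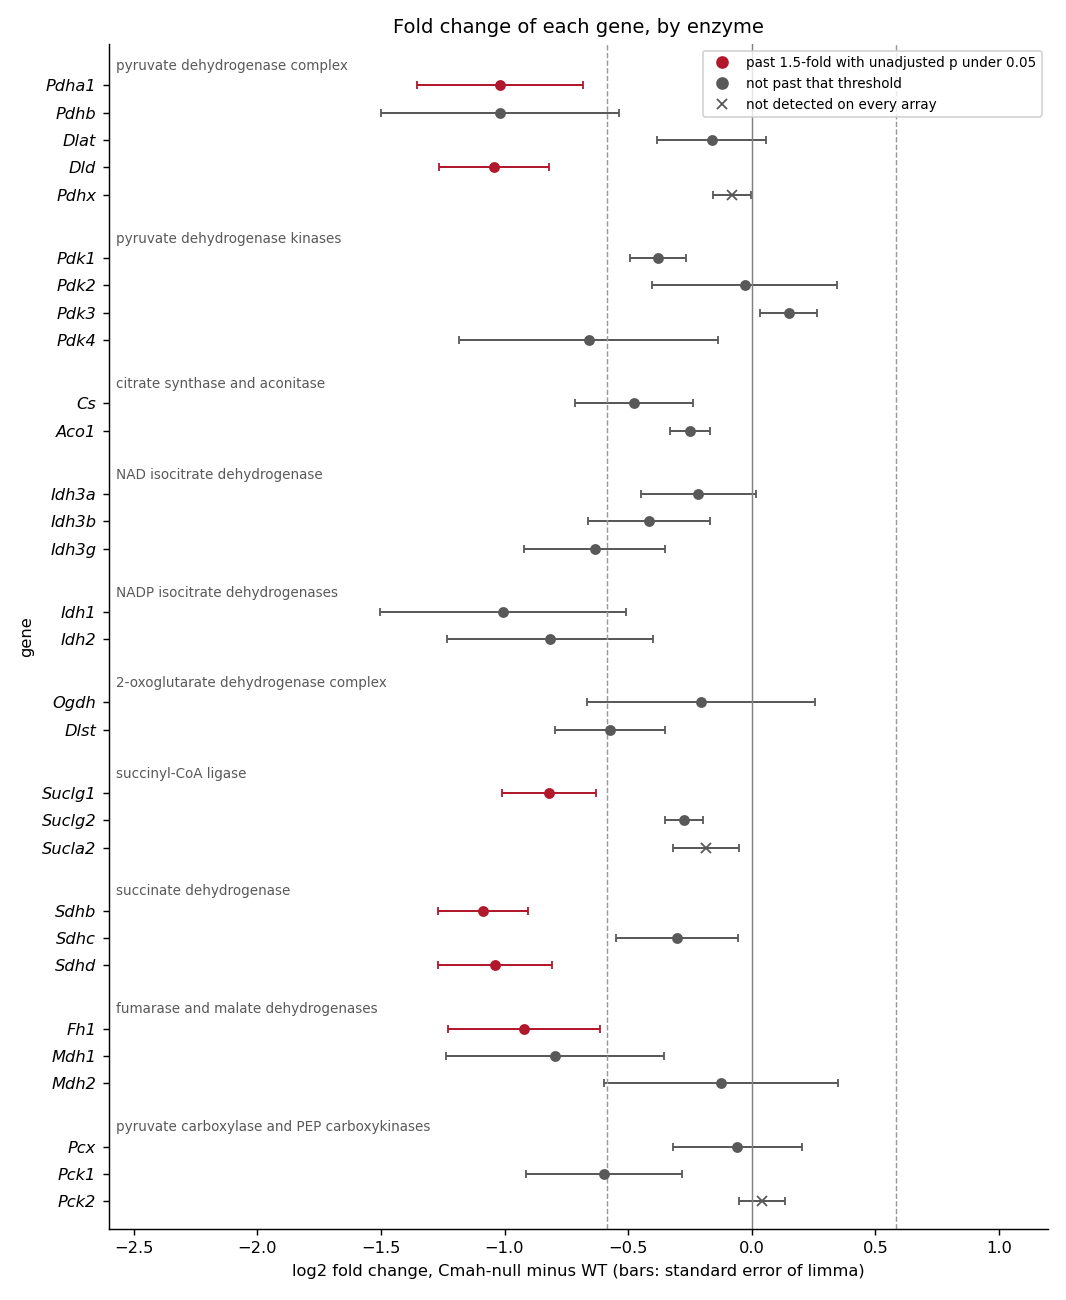
Log2 fold change of *Cmah*-null minus WT for each gene, grouped by enzyme, with bars for the standard error from limma and dashed lines at 1.5-fold; red points were called and crosses were not detected on every array. The 6 called genes lie between -1.09 and -0.82, and *Pdhb*, *Idh1*, *Idh2* and *Mdh1* lie in or near that range with wider bars.

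By place in the cell, the 4 cytosolic genes (*Aco1*, *Idh1*, *Mdh1* and *Pck1*) had a median log2 fold change of -0.70 and 0 calls, and the 22 mitochondrial genes detected on all arrays had a median of -0.45 and 5 calls. Summed linear signal of the cytosolic genes ran from 3767 to 5429 in WT and from 1630 to 3161 in *Cmah*-null, without overlap, and replicate 3 gave the lowest of these values. To test whether paired forms changed unequally, the difference between their probes was taken within each array and compared between groups by an exact two-sided permutation test over the 6 arrays, whose smallest possible p is 0.1, or 0.4 after adjustment over the 4 pairs, so that no pair could pass 0.05. *Idh2* minus *Idh1* was 1.12 ± 0.96 in WT and 1.31 ± 1.62 in *Cmah*-null (SD, n = 3, exact p = 0.8). *Mdh2* minus *Mdh1* was 2.11 ± 0.05 in WT and 2.79 ± 1.77 in *Cmah*-null (SD, n = 3, exact p = 1). All 3 WT arrays lay between 2.06 and 2.15, null replicates 1 and 2 lay below them at 1.92 and 1.61, and null replicate 3 stood at 4.82.

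*Suclg2* minus *Sucla2* was 2.34 ± 0.15 in WT and 2.25 ± 0.29 in *Cmah*-null (SD, n = 3, exact p = 0.8), with *Sucla2* at background on null replicates 1 and 2. *Pck2* minus *Pck1* was -1.56 ± 0.68 in WT and -0.93 ± 0.31 in *Cmah*-null (SD, n = 3, exact p = 0.2), with *Pck2* at background on every array, so that this value follows *Pck1*. The p adjusted over the 4 pairs was 0.8 or 1 in these exact tests, which at this number of arrays cannot show that the forms changed alike.

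**Figure D3:**
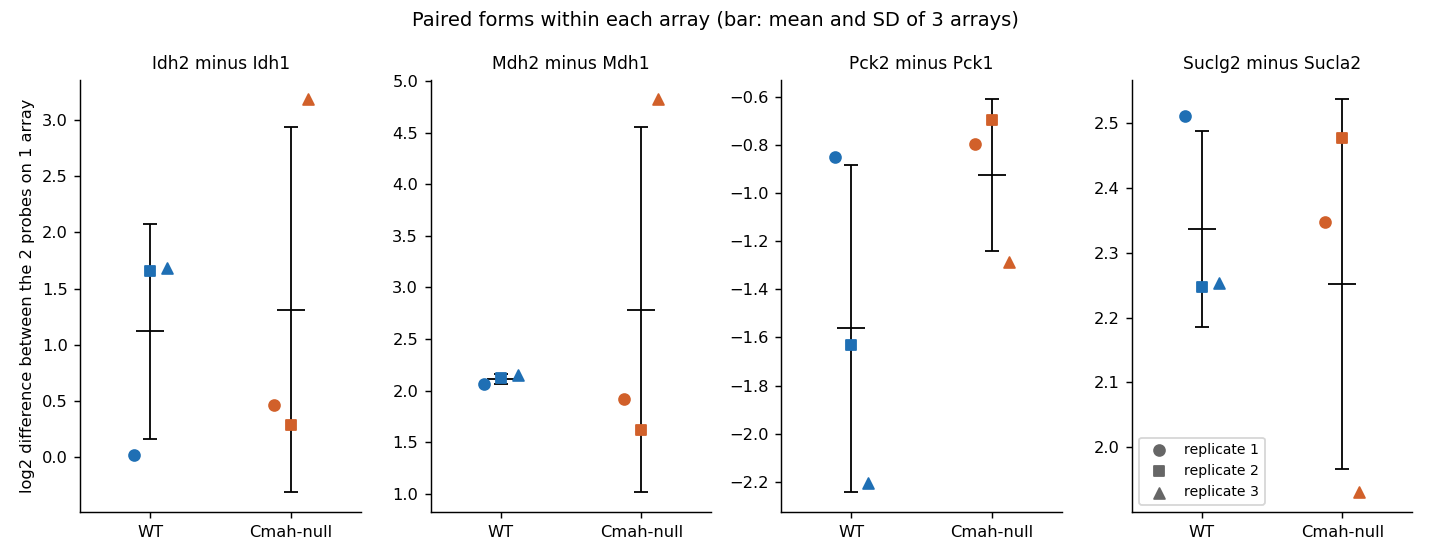
Difference in log2 signal between the probes of 4 pairs of enzyme forms on each array, with blue for WT and orange for *Cmah*-null, symbols for the replicate, and bars for the mean and SD of 3 arrays; each panel has its own scale. In the panels of *Idh2* minus *Idh1* and *Mdh2* minus *Mdh1*, *Cmah*-null replicate 3 lies at 3.18 and 4.82, far above the other null arrays.

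*Cmah*-null replicate 3 stood apart from the other null arrays in most genes of the list. In 24 of the 27 detected genes it lay farther from the mean of replicates 1 and 2 than these lay from each other, the exceptions being *Dld*, *Pdk1* and *Aco1*. Replicates 1 and 2 never differed by more than 0.25 log2 units in any of these genes, while replicate 3 lay above their mean in 16 of the 27 detected genes and below it in 11, from -1.58 (*Idh1*) to 1.60 (*Mdh2*). *Ogdh*, *Pdk4* and *Idh2* stood with *Mdh2* at 1.38, 1.34 and 1.23, and *Mdh1*, *Idh3g*, *Fh1* and *Pdha1* with *Idh1* at -1.46 to -0.84. Without this array, 21 of the 30 genes had null values that all lay below the WT values, in place of 11, against 15.7% of all probes in place of 7.33%. The genes called lower were then 10, the same 6 with *Pdk4*, *Idh2*, *Dlst* and *Mdh2*, against 1.82% of all probes in place of 1.41%. Among the WT arrays, replicate 1 was the highest in 20 of the 27 genes and the lowest in 4 (*Dld*, *Idh2*, *Sdhd* and *Pck1*), and replicate 3 was the lowest in 18.

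**Figure D4:**
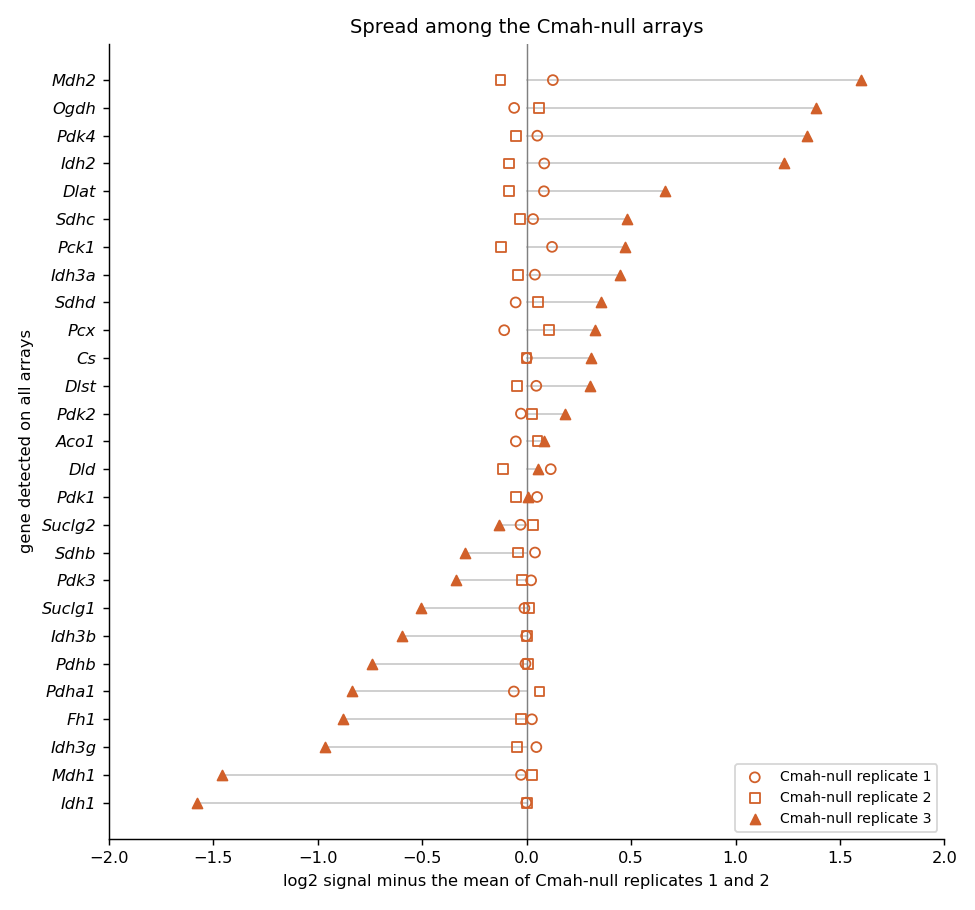
Log2 signal of the 27 genes detected on all arrays on each *Cmah*-null array, minus the mean of null replicates 1 and 2, ordered by replicate 3 (filled triangles); open circles and squares are replicates 1 and 2. The open symbols stay within 0.13 of the middle line, while the triangles run from -1.58 to 1.60.

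The balance of upstream and downstream probes, which can depend on RNA quality but does not measure it directly, moved with the same arrays. For 881 genes with probes at least 300 bases apart, both detected on all arrays, the log2 signal of the upstream probe minus that of the downstream probe was taken relative to its median over the arrays of that gene. Its median was 0.26 on WT replicate 1 and -0.15 on *Cmah*-null replicate 3, and between -0.04 and 0.02 on the other 4 arrays. Of 3 members with such a pair of probes, the upstream probe gave the larger difference between groups in *Idh3g* and *Suclg1* and the smaller one in *Pdhb* (-1.02 at base 582 against -1.14 at base 882). The upstream probes of the former 2 are shown to place them.
Idh3g, ILMN_1224368, base 296: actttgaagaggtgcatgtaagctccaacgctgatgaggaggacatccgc
Suclg1, ILMN_1216493, base 83: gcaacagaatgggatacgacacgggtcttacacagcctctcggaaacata

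The *Suclg1* probe at base 83 differed by -1.56 (SE 0.57) against -0.82 for the probe at base 1111 used above, and both were called. The upstream minus downstream difference of *Suclg1* was -2.37, -3.01 and -3.41 in WT and -3.39, -3.24 and -4.38 in *Cmah*-null. The *Idh3g* probe at base 296 differed by -1.25 (SE 0.61) against -0.64 at base 1256, and its upstream minus downstream difference was -2.90, -3.65 and -3.71 in WT and -3.87, -3.55 and -4.67 in *Cmah*-null. In both genes, and in *Pdhb* (2.03 and 0.58), WT replicate 1 had the highest and *Cmah*-null replicate 3 the lowest difference. Taking for each gene the detected probe nearest the end of the transcript kept the 6 calls and added *Pdhb*. The part of RNA quality in the differences of these genes was not tested.

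Marker genes of tissues around the cochlea also differed between the arrays. Of 7 brown fat markers, a list chosen with earlier results of these data known, 4 were called lower, against 1.41% of all probes. They were *Ucp1*, the uncoupling protein (log2 fold change -2.11), *Cidea* (-2.01), *Cox8b* (-1.44) and *Ppargc1a* (-0.65), a coactivator of mitochondrial genes. Their adjusted p in limma was 0.433, 0.397, 0.551 and 0.58. *Elovl3* (-0.64), detected on 4 arrays, overlapped between groups and was not called, and *Dio2* and *Prdm16* were not detected. The summed linear signal of the 7 markers ran from 36634 to 57445 in WT and from 7866 to 22429 in *Cmah*-null. The summed signal of the 27 detected citrate cycle and pyruvate dehydrogenase genes ran from 120617 to 168837 in WT and from 91714 to 98228 in *Cmah*-null. Neither sum overlapped between groups. Among the null arrays, replicate 3 had the lowest brown fat sum, the highest enzyme sum, in which bright probes weigh most, and the lowest median log2 signal of the 27 enzymes, 10.55 against 10.66 and 10.58.

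All 14 skeletal muscle markers had log2 fold changes at or below 0, with 0 called, a median of -0.51 and summed signals of 220734 to 392714 in WT and 218591 to 278795 in *Cmah*-null, which overlapped (*Myh7* was not detected). On *Cmah*-null replicate 3, *Myh4* and *Ryr1* read 13.89 and 13.57 against 11.35 to 11.68 on the other null arrays, and *Mylpf* read 11.47 against 13.93 and 14.02. Of 8 fat cell markers 1 was called lower, *Lep* (log2 fold change -1.49), *Retn* was not detected, and the sums overlapped, at 39228 to 75301 in WT and 43657 to 60694 in *Cmah*-null. The part of brown fat, fat or muscle in the lower signal of the enzymes was not tested.

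Of 9 hair cell markers, *Slc26a5*, *Pou4f3* and *Strc* were not detected on any array and 4 were detected on all. The sums over all 9 were 1655 to 1945 in WT and 2008 to 2063 in *Cmah*-null, without overlap. They include the background signal of the undetected markers. The log2 fold changes of the 4 detected on all arrays were 0.55 for *Otof*, 0.43 for *Gfi1*, 0.17 for *Tmc1* and 0.09 for *Myo7a*, each under 1.5-fold. *Otof* and *Gfi1* had unadjusted p of 0.0314 and 0.0262 and adjusted p of 0.554 and 0.545 in limma. Of 11 markers of cochlear support cells and lateral wall, 6 were detected on all arrays, among them *Coch* and *Gjb2*, *Tectb* and *Otor* on 0, and the sums were 12572 to 26077 in WT and 20523 to 21803 in *Cmah*-null. The median log2 fold changes were 0.09 and 0.03, with 0 genes called in either list. The other marker lists had 0 calls as well, with medians of -0.03 for 10 red cell and marrow genes, -0.16 for 9 bone and cartilage genes, -0.10 for 6 neuron genes and -0.32 for 6 myelin genes. The summed signal of the myelin genes was 95735 on WT replicate 1 and 37619 to 46412 on the other 5 arrays.

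**Figure D5:**
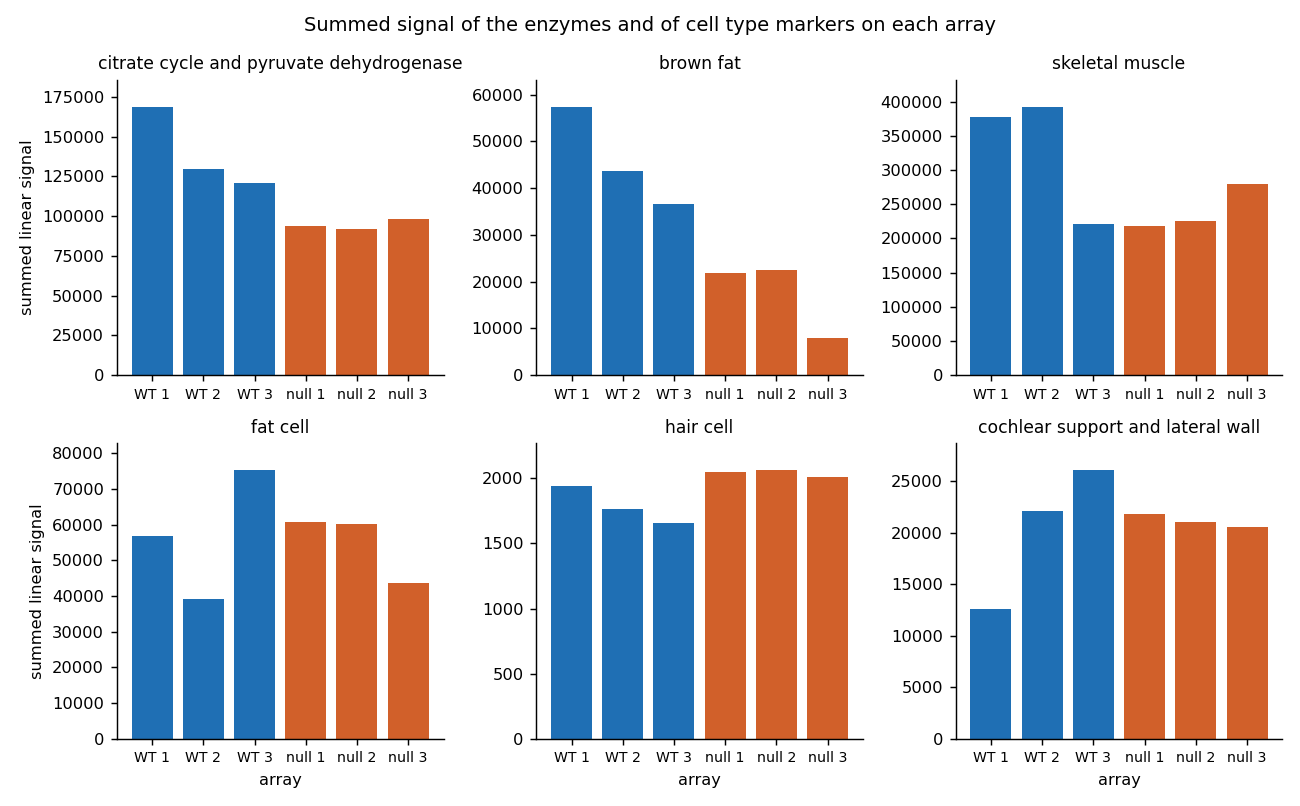
Summed linear signal of the 27 detected citrate cycle and pyruvate dehydrogenase genes and of 5 lists of cell type markers on each array, with blue bars for WT and orange bars for *Cmah*-null; each panel has its own scale starting at 0. The enzymes and the brown fat markers do not overlap between groups, and the skeletal muscle, fat cell and support cell sums do. The hair cell sums do not overlap either, with the *Cmah*-null arrays higher, but include markers not detected on any array.

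Other genes of the pathway gave the wider setting. Of 33 further genes of pyruvate and citrate metabolism, 18 had a probe under their symbol, 13 were detected on all arrays and 4 on none, and 0 were called in either direction. Their median log2 fold change was -0.24. The null values lay below all WT values for 5 genes, against 7.33% of all probes, and above them for 1, against 9.11%. *Brp44*, an older symbol of the mitochondrial pyruvate carrier, read 10.08, 9.77 and 9.54 in WT and 9.32, 9.28 and 9.28 in *Cmah*-null, a log2 fold change of -0.50 with an unadjusted p of 0.0134 in limma. *Lias*, which makes the lipoic acid that both dehydrogenase complexes carry, read 12.42, 12.54 and 12.44 in WT and 12.23, 12.24 and 11.36 in *Cmah*-null, with a log2 fold change of -0.52 and an unadjusted p of 0.0832 in limma. *Ldha*, lactate dehydrogenase A, differed by -0.54, and *Acly*, which splits citrate in the cytosol, by -0.40. *Slc25a10*, the dicarboxylate carrier, was the gene above all WT values, at 8.72, 8.74 and 8.78 in WT and 9.01, 9.05 and 9.32 in *Cmah*-null, a log2 fold change of 0.38 with an unadjusted p of 0.0109 in limma.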

How the data were processed

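The authors deposited, per the file headers, raw average bead intensity of each of 25697 probes with its bead standard error (also on the intensity scale), the count of beads behind each value and a detection p-value, without normalization. A second deposited table holds log2 values, and quantile normalization of the log2 raw signals gave the same values to within 5e-07. Its fold change and test columns, made by the authors, were not used, nor were 12 columns that repeat the signals.

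The members and lists were chosen with earlier results of these data known. Per symbol, the probe with the highest mean was used. The deposited log2 values of all probes went into 1 two-sided comparison of genotypes without covariates in limma 3.58.1 (lmFit, eBayes; R 4.3.3). P-values were adjusted over all probes by Benjamini-Hochberg, and the code was tested on simulated data. Named genes are all members, with other genes from lists of the pathway and of cell type markers, some of them picked after their values were seen. Alternatives were neqc (offset 16), the replicate number as a block, median scaling, a filter on detection on at least 3 arrays, trend and robust priors, sets of arrays with fewer or more beads, *Cmah*-null replicates 1 and 2 averaged, each array left out, the mean of all probes and, chosen after seeing the data, the detected probe nearest the transcript's end. The number of arrays limits the precision. Figures used matplotlib 3.10.9 in Python 3.11.15.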

Additional observations from a re-analysis of the deposited data

How the results depend on the processing

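With 3 arrays a group, 0 of these genes passed an adjusted p of 0.05 in limma under any alternative, and 10 had an unadjusted p under 0.05 in the reported fit. The 6 genes called lower became 2 with median scaling, 11 with the replicate number as a block, 12 with bead sets as a block and 4 to 10 when 1 array was left out. The share of all probes called lower was 1.41% as reported and 0.307%, 1.6%, 3.4% and 0.926% to 2.04% under these settings. With median scaling, null values lay below all WT values for 2 genes, against 2.65% of all probes. With 1 array left out, they lay below all WT values for 11 to 21 genes, against 9.92% to 15.7% of all probes. They lay above all WT values for 0 to 2 genes, against 12.1% to 18.0% of all probes. Both blocks added *Pdhb*, *Idh3g*, *Idh1* and *Mdh1*, and the replicate block also *Pdk4* (log2 fold change -0.66, unadjusted p = 0.00137 in limma). *Dld* and *Sdhd* were called in all 15 alternatives with a test, *Suclg1* and *Sdhb* in 14, and *Pdha1* and *Fh1* in 12. Same-numbered arrays deviated from their group means with correlations of 0.02, -0.17 and 0.01. With 3 arrays a group and null replicates 1 and 2 near-identical, these values cannot decide whether the replicate numbers pair the samples. The replicate block changed no other count past 1.5 times and no direction. No cause of these changes was tested.

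The median log2 fold change of the 30 genes was -0.53 to -0.27 with 1 array left out. Of the 4 differences between paired forms, *Pck2* minus *Pck1* kept its direction under the alternatives that left *Pck2* in, a probe at background on every array, and the other 3 pairs did not keep theirs. The filter on detection removed *Pck2*. *Suclg2* minus *Sucla2*, null minus WT, was -0.086 as reported, 0.18 with neqc, 0.34 with median scaling, 0.040 with the mean of all probes, and -0.20 to 0.075 with 1 array left out. *Idh2* minus *Idh1* ranged from -0.75 to 0.70 and *Mdh2* minus *Mdh1* from -0.35 to 1.26 with 1 array left out, the lowest in each case without *Cmah*-null replicate 3, and *Mdh2* minus *Mdh1* was -0.30 within the arrays with fewer beads.

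No called gene changed direction, but 11 others did with median scaling, at log2 fold changes of 0.26 for *Dlat*, 0.079 for *Pdk2*, 0.038 for *Cs*, 0.30 for *Idh3a*, 0.095 for *Idh3b*, 0.31 for *Ogdh*, 0.10 for *Suclg2*, 0.22 for *Sdhc*, 0.39 for *Mdh2*, 0.14 for *Pcx* and -0.10 for *Pck2*. *Pdk2* was 0.059 with neqc. With bead sets as a block *Mdh2* was 0.063 and *Pck2* -0.0058, and with *Cmah*-null replicates 1 and 2 averaged *Pdk2* was 0.0015, *Ogdh* 0.027 and *Mdh2* 0.14. Leaving out 1 array gave -0.35 to 0.39 for *Pdk2*, -0.67 to 0.090 for *Ogdh*, -0.66 to 0.20 for *Mdh2*, -0.31 to 0.17 for *Pcx* and -0.0077 to 0.11 for *Pck2*.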
